A study of Mus musculus with 2 samples.

Results

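Plasmacytoid dendritic cells (pDCs) of the popliteal lymph nodes (PLNs) of arthritic mice were described here from single-cell RNA sequencing. Members were chosen by their measured UMI counts: the cells with at least 200 detected genes, a summed Cd79a, Cd79b and Ms4a1 share of the cell's UMIs (unique molecular identifiers, each counting 1 captured transcript) under 0.0015, at most 1 UMI of Cd3d, Cd3e and Cd3g together, and at least 5 UMIs of Siglech, Ccr9 and Cox6a2 together. The rule found 193 members among 16404 cells, 75 of 8221 in the Early library and 118 of 8183 in the Advanced library.

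The PLN drains the hind paw and ankle, and the study asked how its cells change as arthritis driven by tumor necrosis factor (TNF) progresses. Every cell came from male TNF-Tg mice, which carry a TNF transgene on the C57BL/6 background, so both groups share the transgene and no wild-type library enters these comparisons. Early arthritis was taken at 5 to 6 months of age and Advanced arthritis from 8 months onward, and age and disease stage therefore cannot be told apart. Each stage is 1 library made from 6 PLNs of 3 mice pooled before sorting, found with Evans blue injected into the hind paw, digested with Accumax and sorted for Hoechst-positive, Sytox Green-negative live cells. With 1 library per stage there is no replicate and no test, and no p-value is given; every interval below is an exact 95% interval, and intervals and floors cover counting error only.

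pDCs are dendritic cells specialised to sense viral and self nucleic acids through endosomal Toll-like receptors and to release type I interferon in large amounts. They develop under the transcription factor TCF4 (E2-2), keep features shared with lymphocytes and with secretory cells, and enter lymph nodes from the blood across high endothelial venules. Conventional dendritic cells instead take up and present antigen to T cells, and those that migrate into lymph nodes are marked by CCR7.

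Promoters of 4 genes that the results turn on are shown first, as 300 bases (250 before and 50 after the RefSeq start) of build GRCm38.p6, because pDC genes include targets of E-box-binding TCF4 and of interferon-activated factors. In the Siglech and Klk1 promoters the capitals mark a CACCTG or CAGCTG match on either strand, the core letters of an E-box. In the Bst2 and Isg15 promoters the capitals mark overlapping matches of GAAA, any 2 bases and GAAA on either strand, the core letters of an interferon response element.
Siglech (chr7:55767934-55768233, plus strand): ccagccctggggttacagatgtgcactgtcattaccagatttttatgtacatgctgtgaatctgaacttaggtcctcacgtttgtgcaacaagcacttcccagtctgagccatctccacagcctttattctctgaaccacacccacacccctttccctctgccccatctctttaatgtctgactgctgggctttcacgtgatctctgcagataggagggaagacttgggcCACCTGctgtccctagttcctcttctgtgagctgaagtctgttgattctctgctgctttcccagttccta
Klk1 (chr7:44225110-44225409, plus strand): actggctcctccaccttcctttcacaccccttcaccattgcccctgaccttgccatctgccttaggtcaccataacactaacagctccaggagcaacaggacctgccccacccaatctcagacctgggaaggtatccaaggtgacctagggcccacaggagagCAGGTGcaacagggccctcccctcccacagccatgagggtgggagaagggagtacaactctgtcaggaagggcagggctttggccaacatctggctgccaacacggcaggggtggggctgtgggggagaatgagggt
Bst2 (chr8:71537423-71537722, minus strand): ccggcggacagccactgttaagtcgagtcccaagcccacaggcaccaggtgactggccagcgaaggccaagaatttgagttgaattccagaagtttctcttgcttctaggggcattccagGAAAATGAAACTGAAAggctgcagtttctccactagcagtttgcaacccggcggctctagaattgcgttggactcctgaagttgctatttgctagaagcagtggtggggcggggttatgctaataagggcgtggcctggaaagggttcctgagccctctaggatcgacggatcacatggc
Isg15 (chr4:156200769-156201068, minus strand): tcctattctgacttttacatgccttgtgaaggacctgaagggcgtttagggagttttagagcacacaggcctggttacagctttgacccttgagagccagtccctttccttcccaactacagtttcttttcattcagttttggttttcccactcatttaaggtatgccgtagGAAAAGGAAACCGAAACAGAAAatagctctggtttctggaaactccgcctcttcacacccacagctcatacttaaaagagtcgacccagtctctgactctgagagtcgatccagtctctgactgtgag

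The E-box letters were common throughout the genome. CACCTG lay in 20.0% and CAGCTG in 16.1% of 27025 promoters of this length, and in 26.5% and 16.9% of the 83 promoters available for genes higher in pDCs than in conventional dendritic cells. The interferon response element core lay in 3.49% of all promoters and in 15 of 30 promoters (50%) of a list of interferon response genes, against 3 of 30 promoters of the pDC surface gene list. The RUNX core TGTGGT lay in 16.9% of all promoters and 18.1% of those 83, and the PU.1 core GAGGAA in 28.3% and 38.6%. A match only says that the letters are in the window.

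Members were deeply sequenced cells. They held a median of 14706 UMIs in the Early library (1605 to 71852) and 17787 in the Advanced library (5581 to 67735), from medians of 3500 and 3805 genes. The median B cell held 6564 and 7370 UMIs and the median T cell 11526 and 11060. The libraries summed to 67610110 and 83148059 UMIs, 20 barcodes occurred in both, and none of the 20 was a member.

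The rule used the marker sum, so its values only describe the members. The sum had a median of 71 UMIs (Early) and 72 UMIs (Advanced), with maxima of 224 and 262. Just outside the threshold lay 3 Early and 13 Advanced cells at 3 UMIs and 1 and 6 cells at 4. Just inside lay 2 and 2 cells at 5 UMIs and 1 and 3 cells at 6, so few cells sat near it. By gene, Siglech, an inhibitory receptor of mouse pDCs, was seen in 70 of 75 and 111 of 118 members, Ccr9, a homing receptor, in 72 and 108, and Cox6a2, a cytochrome c oxidase subunit otherwise typical of muscle, in 63 and 99.

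**Figure D1:**
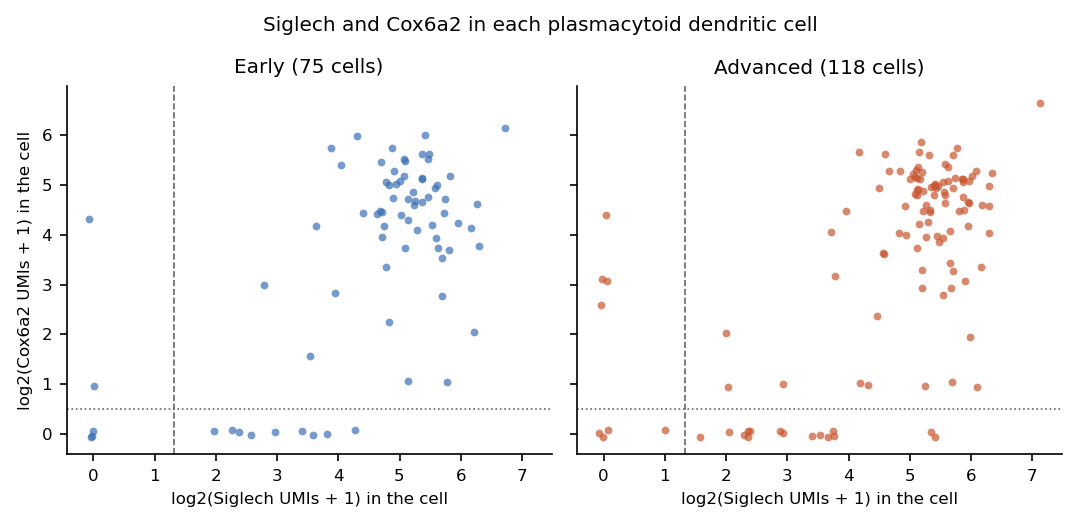
Each point is 1 member cell, with log2 of its Siglech UMIs plus 1 on the horizontal axis and log2 of its Cox6a2 UMIs plus 1 on the vertical axis, Early on the left and Advanced on the right. The dashed line marks 2 Siglech UMIs and the dotted line 1 Cox6a2 UMI, so 61 Early and 95 Advanced cells lie beyond both lines, 9 and 15 have Siglech without Cox6a2, and 5 and 8 lie left of the dashed line.

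A small set of members held little Siglech, and several of them did not look like pDCs. Fewer than 2 Siglech UMIs were found in 5 Early and 8 Advanced members (6.67% and 6.78%), which had medians of 35957 and 37953 UMIs. Individual cells among them held up to 62 UMIs of Nkg7, a cytotoxic granule gene, 37 UMIs of Dntt, the terminal transferase of lymphoid precursors, 29 UMIs of Xcr1, a marker of cross-presenting conventional dendritic cells, 1689 UMIs of Jchain and 6688 UMIs of Ighm, antibody genes of plasma cells. Not all were of this sort: Advanced cells of 23964 and 38273 UMIs held 46 and 36 Bst2 UMIs and 18 and 21 Tcf4 UMIs. The cell share, the class counts and the stage results were therefore also computed on the 70 Early and 110 Advanced members with at least 2 Siglech UMIs, an alternative chosen after seeing the data.

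Most members also held pDC markers that the rule did not use. Bst2, the tetherin that marks pDCs, was seen in 72 of 75 Early and 117 of 118 Advanced members, at medians of 37.9 and 37.3 UMIs per 10000. Ly6d was seen in 69 and 111 members, Tcf4 in 74 and 118, Irf8 in 70 and 111 and Runx2 in 68 and 112. After every cell was thinned to 3000 UMIs to equalise depth, which left 74 Early and 118 Advanced members, Bst2 was detected in 90.5% and 94.9% of members, against 8.82% and 9.64% of B cells and 24.9% and 18.6% of T cells. Klk1, a kallikrein of mouse pDCs, was detected in 43.2% and 35.6% of thinned members and in 0.0534% and 0.0700% of thinned B cells, and Runx2 in 59.5% and 67.8% against 0.160% and 0.385%.

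T cell, B cell and monocyte markers stood at lower summed levels than in those classes. The class rules used some of these markers, so that difference was in part fixed in advance and only describes the classes. Plasma cell markers and, in the Early library, NK cell markers and antibody genes stood higher in the sums of the members than in the other classes, in part through single cells. In counts per 1000000 UMIs of the class (CPM), the 12 T cell markers summed to 119 in Early and 164 in Advanced members against 6037 and 5750 in T cells, and the 10 B cell markers to 414 and 683 against 8910 and 8660 in B cells. The 16 monocyte and macrophage markers summed to 1649 and 2139, of which 986 and 1064 were Ly6c2, which pDCs also express, against 13161 and 12309 in non-classical monocytes. The 10 NK cell markers summed to 596 and 421 against 359 and 803 in T cells. Among them Klrd1 was widely seen in members with at least 2 Siglech UMIs and 1 Cox6a2 UMI. It stood there at 297 and 407 CPM, in 56 of 61 Early and 89 of 95 Advanced cells. The 6 plasma cell markers summed to 1604 and 770 in members against 115 and 303 in B cells. Jchain gave 1253 and 395 of these member sums, mostly from 1 cell per library. Those cells held 1689 Early and 835 Advanced Jchain UMIs and 0 Siglech UMIs each. Over all members, neutrophil markers stood at 1.48 and 19.7, erythroid markers at 0 and 4.52, and stromal and endothelial markers at 119 and 100. A set of 8 antibody genes often found as free RNA summed to 15110 and 5576 against 8361 and 10441 in B cells, of which the heavy chain Igha alone gave 4584 in Early members, 99.9% of it in 1 cell.

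pDCs made up 0.912% (0.718 to 1.14) of Early cells and 1.44% (1.20 to 1.72) of Advanced cells, a ratio of 1.58 (1.17 to 2.14). The direction depended on the denominator. B cells went from 92.7% to 72.5% and T cells from 2.10% to 13.6% of the libraries. Among the cells that were neither, pDCs were 75 of 365 (20.5%) and 118 of 655 (18%), a ratio of 0.877 (0.651 to 1.19). Conventional dendritic cells numbered 47 and 89, a ratio of 1.90 (1.32 to 2.77), so pDCs made up 61.5% and 57.0% of the dendritic cells of the 2 kinds.

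Against conventional dendritic cells, 29 of 42 pDC surface and marker genes and 3 of 15 pDC transcription factors were higher in pDCs, and 10 of 22 conventional dendritic cell genes were lower, as was 1 of 15 class II genes. Conventional dendritic cells were those neither B nor T, with at most 1 UMI each of the pDC, monocyte and lymphoid precursor sets and at least 3 UMIs of Flt3, Zbtb46, Xcr1, Clec9a, Cd209a, Ccl22 and Fscn1. A gene was called apart when it reached 10 CPM in 1 of the classes in each library and the interval of the ratio lay wholly beyond 4-fold, the same way, in both libraries. Of 7846 genes compared, 111 were higher in pDCs (1.41%) and 140 lower (1.78%), genes of either class rule left out. The class rules were set on the same cells, so these counts describe the classes and are no test.

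In the surface and marker gene list of pDCs, 29 of the 42 members compared were higher, none was lower, and the median log2 ratios were 3.98 (Early) and 3.87 (Advanced), against -0.00 and 0.05 for all genes. Bst2 stood at 2884 CPM in Early and 2829 CPM in Advanced pDCs and at 111 and 99.8 CPM in conventional dendritic cells, ratios of 26.0 (21.4 to 32.0) and 28.3 (24.5 to 32.9). Ly6c2 stood at 986 and 1064 CPM against 3.26 and 6.94 CPM, the gene furthest apart by the interval end nearest to 1, with ratios of 302 and 153. Both genes were higher in pDCs in each library.

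Klk1 stood at 429 and 228 CPM in pDCs, while conventional dendritic cells held 0 UMIs in the Early library and 0.534 CPM in the Advanced library, at least 132-fold lower by the floor of 3 counts in the former. Its near relative Klk1b27 stood at 117 and 92.8 CPM. Reads of the closely related kallikrein, Ly6, Ifi200 and Bcl2a1 genes can be split between copies, so single members of these families are uncertain. Also among the 12 genes furthest apart were Cd300c, a surface receptor (268 and 229 CPM against 2.18 and 3.74), and Ctsl, the lysosomal protease cathepsin L (978 and 973 against 26.1 and 13.3). Further genes among them were Upb1, Pir, Atp2a1, the predicted gene Gm21762 and the noncoding RNA Eldr, each at or under 2.18 CPM in conventional dendritic cells of both libraries.

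Ly6d was less clear-cut across the series. pDCs held 2634 and 1985 CPM, conventional dendritic cells 46.8 and 193 CPM, and B cells 2201 and 2163 CPM, so it separated pDCs from conventional dendritic cells but not from B cells, where it is also a known surface protein.

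Of the 15 pDC transcription factors, 3 were higher than in conventional dendritic cells, with list medians of 1.38 and 1.82 (log2), and 13 lay above 1 in both libraries. Tcf4, which directs pDC identity, stood at 1407 and 1589 CPM against 116 and 214, ratios of 12.1 (9.94 to 14.8) and 7.44 (6.71 to 8.27). Runx2, needed for pDC exit from bone marrow, stood at 403 and 446 CPM against 29.4 and 58.2. Irf8 stood at 1885 and 1831 CPM against 393 and 269, ratios of 4.80 and 6.82. Bcl11a (429 and 443 against 124 and 90.7), Spib (204 and 211 against 78.3 and 59.8) and Irf7, the inducer of interferon genes (113 and 115 against 49.0 and 25.6), were higher by less than the 4-fold rule required. The factors of conventional dendritic cells went the other way: Batf3 stood at 13.3 and 4.93 CPM against 169 and 136, Relb at 34.0 and 39.8 against 410 and 374, and Id2, which opposes TCF4, at 76.1 and 37.4 against 370 and 320. In the Early library, 83.3% of the Batf3 and 68.9% of the Id2 UMIs of pDCs came from 1 cell.

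**Figure D2:**
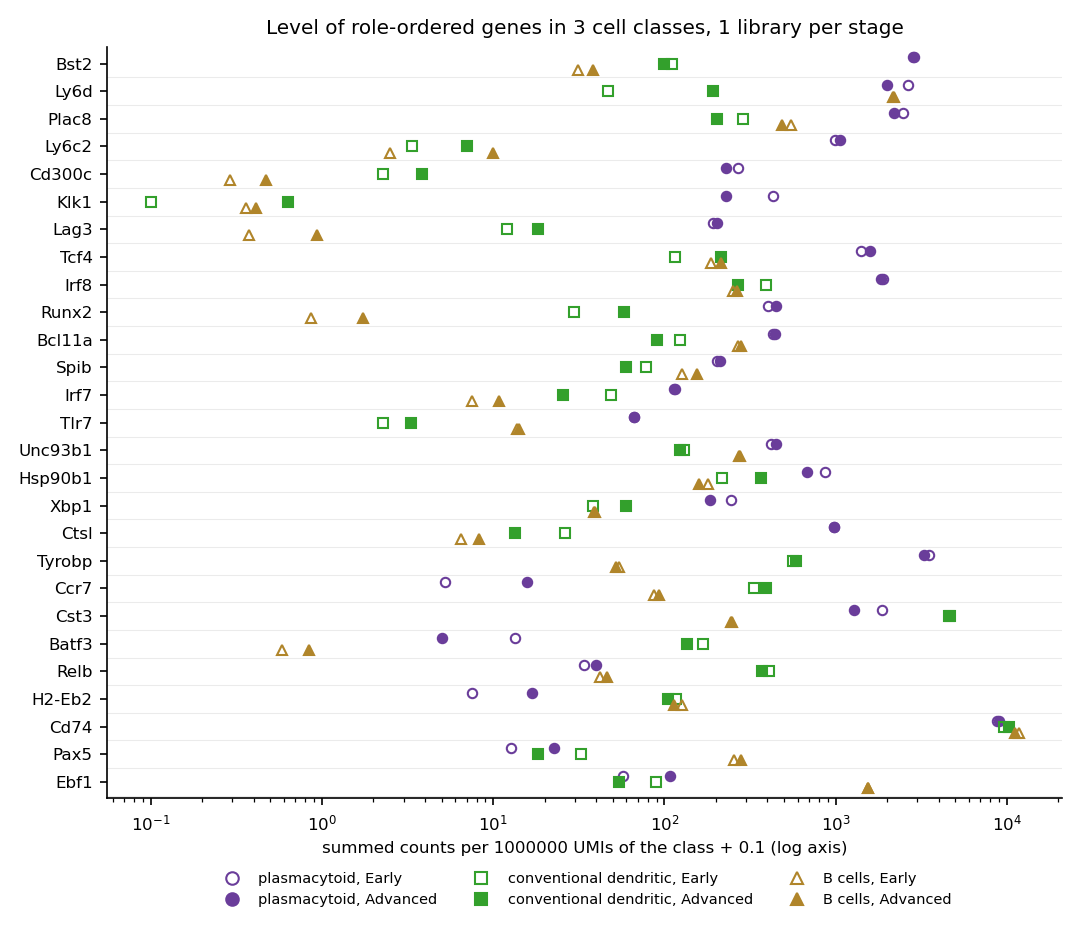
Summed counts per 1000000 UMIs plus 0.1, on a log axis, for 27 genes ordered by role, in pDCs (circles), conventional dendritic cells (squares) and B cells (triangles), with open symbols for the Early and filled symbols for the Advanced library. The pDC circles of Bst2, Tcf4, Irf8, Runx2, Ctsl and Tyrobp lie right of both other classes in both libraries, while those of Ccr7, Batf3 and Relb lie left of the conventional dendritic cells.

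Of the endosomal Toll-like receptors, Tlr7 was higher in pDCs than in conventional dendritic cells. Tlr7, the receptor for single-stranded RNA, stood at 66.5 CPM in both libraries, seen in 47 and 71 members, against 2.18 and 3.20 CPM in conventional dendritic cells, ratios of 30.6 (8.22 to 256) and 20.8 (9.34 to 57.4). Tlr7 stood at 13.6 and 14 CPM in B cells, ratios of 4.89 and 4.74 that did not pass the 4-fold rule, and at 114 and 115 CPM in non-classical monocytes. After thinning, 18.9% and 22.9% of pDCs had a Tlr7 UMI, against 3.76% and 4.06% of B cells and 0.592% and 1.83% of T cells. Tlr9, the receptor for CpG DNA, held only 5 UMIs in 4 Early members and 12 UMIs in 11 Advanced members, 3.69 and 4.93 CPM, close to the level in B cells (3.35 and 2.81 CPM). Both receptors are compared here with themselves across classes, since levels of different genes depend on capture. Of the 17 genes compared in the list of these receptors and their partners, Tlr7 alone was called. Unc93b1, the chaperone that carries these receptors to endosomes, stood at 421 and 448 CPM against 131 and 123, and Slc15a4, a lysosomal transporter needed for their signalling in pDCs, at 70.2 and 75.1 against 27.2 and 37.9.

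No interferon was being transcribed at a level these data could show. Over 20 type I and III interferon genes, Early members held 0 UMIs of 1353499, which allows up to 3 counts, and Advanced members held 1 UMI in 1 cell of 2435310. The members did hold the receptor for that interferon: Ifnar1 stood at 134 and 131 CPM and Ifnar2 at 236 and 216 CPM, against 47.9 and 27.2 and 63.1 and 55.0 CPM in conventional dendritic cells. Ifnar2 was higher than in B cells under the 4-fold rule, with ratios of 6.36 and 5.44.

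The secretory pathway and unfolded protein response list lay moderately above conventional dendritic cells, with 29 of 36 genes above 1 in both libraries and medians of 0.82 and 0.45 (log2), but none passed 4-fold. Xbp1, the master regulator of secretory cells, stood at 244 and 184 CPM against 38.1 and 59.8. Hsp90b1, the chaperone GRP94 that folds Toll-like receptors, stood at 870 and 685 CPM against 218 and 368, and Sec61b, a subunit of the translocon, at 1082 and 931 against 568 and 642. Of the 12 cytochrome c oxidase subunits compared, Cox6a2 left out as a gene of the rule, 11 lay below conventional dendritic cells in both libraries, with medians of -0.23 and -0.36.

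Receptor adaptors and homing receptors set pDCs apart as well. In the list of inhibitory and Fc receptors, 5 of 16 genes were higher. Tyrobp (DAP12), the adaptor through which Siglec-H signals, stood at 3531 and 3278 CPM against 567 and 590, and Lair1, a collagen receptor, at 520 and 448 CPM against 18.5 and 12.3. Among 19 chemokine and homing receptors, 3 were higher and 1, Ccr7, lower. S1pr4, a sphingosine 1-phosphate receptor and 1 of the 3, stood at 33.2 and 38.6 CPM against 1.09 and 2.67. Ccr7 stood at 5.17 and 15.6 CPM against 333 and 394, ratios of 0.0155 (0.00619 to 0.0324) and 0.0396 (0.0278 to 0.0548). Of the cytokine and chemokine list, Ccl4 was higher (106 and 78.0 CPM against 3.26 and 4.27) and Il1b, Cxcl9, Cxcl10 and Cxcl16 were lower.

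The antigen presentation machinery was shared in part. H2-Aa stood at 3925 and 3613 CPM in pDCs, 4014 and 4108 in conventional dendritic cells and 4117 and 4058 in B cells, and Cd74, the invariant chain, at 8734 and 8953 against 9648 and 10251 and against 11711 and 11206. H2-Eb2, a class II chain, alone among the 15 genes of the list was lower than in conventional dendritic cells, at 7.39 and 16.8 CPM against 117 and 105, and it was lower than in B cells too. Of the co-stimulation list, Cd40 (8.87 and 6.98 CPM against 147 and 141) and Cd83 (8.13 and 13.6 against 125 and 161) were lower, both also against B cells. Of 22 genes of conventional dendritic cells, 10 were lower, among them Il4i1, Tmem176a, Tmem176b, Ly75 and Ccr7, with medians of -2.43 and -2.65. Outside that list, Zmynd15, H2-M2, the tetraspanin Cd63, Anxa3, Tnfrsf4 (OX40), Apol7c, Mreg, Asprv1, 2610528A11Rik and the fatty acid carrier Fabp5 were among the 12 genes furthest below, with Socs2 and Cacnb3 of the list completing them. Fabp5 stood at 31.0 and 78.8 CPM against 1266 and 1870. Targets of TNF and NF-kB signalling were low relative to conventional dendritic cells but not to B cells. Against conventional dendritic cells 17 of 21 lay below 1 in both libraries, with medians of -0.93 and -0.80, and Traf1 (25.1 and 25.5 CPM against 310 and 265) and Bcl2a1b (31.0 and 53.4 against 729 and 938) passed 4-fold. Against B cells the medians were 0.23 and 0.14, near the 0.26 and 0.20 of all genes. The list summed to 1164 and 1229 CPM in pDCs, 1264 and 1273 in B cells, 1148 and 957 in T cells and 3754 and 3508 in conventional dendritic cells.

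**Figure D3:**
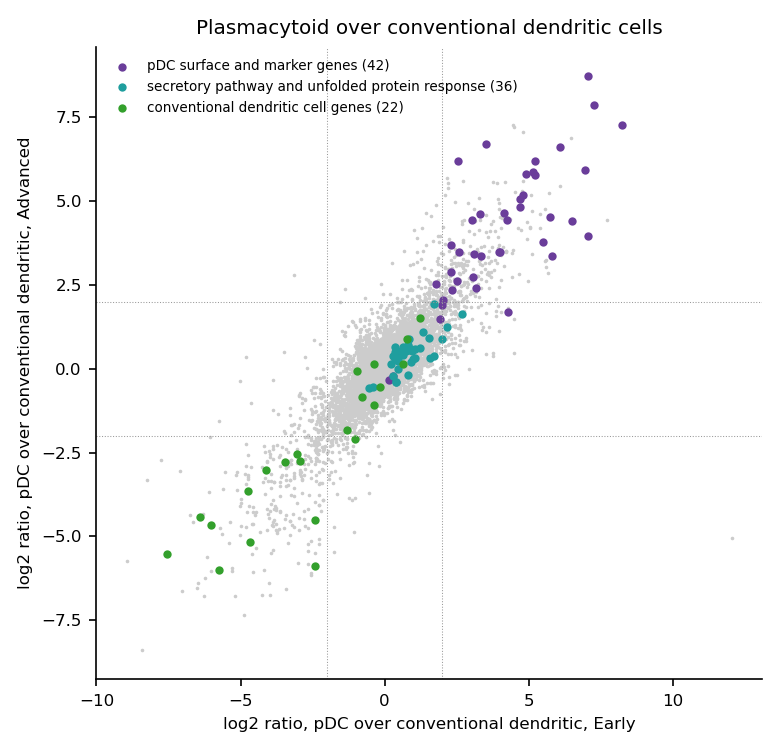
Each grey point is 1 of the 7846 genes compared, with the log2 ratio of pDC over conventional dendritic cell CPM in the Early library on the horizontal and in the Advanced library on the vertical axis, and dotted lines at 4-fold. The 42 pDC surface genes lie mostly in the upper right, the 36 secretory genes just above the origin (medians 0.82 and 0.45) and the 22 conventional dendritic cell genes mostly in the lower left (medians -2.43 and -2.65).

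Against B cells, the most abundant class, pDCs differed in more genes. Of 7648 compared, 454 were higher (5.94%) and 86 lower (1.12%), while the median of all genes itself was shifted to 0.26 and 0.20 (log2), so list medians are read against that shift. With trimmed mean (TMM) factors the same rule gave 370 higher and 138 lower. The B cell class was set by Cd79a, Cd79b and Ms4a1, which are left out of the counts.

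The pDC surface list had 34 of 42 genes higher, with medians of 5.97 and 5.52. Klk1 stood at 0.259 and 0.312 CPM in B cells, ratios of 1659 and 730, and Runx2 at 0.759 and 1.64 CPM, ratios of 532 and 272. The 12 genes furthest above B cells also held Cd300c, Gm21762, Gm14207, Klk1b27, Lag3, Klra17, Smim5, Grm8, Upb1 and Cd209d, a C-type lectin. Lag3, an inhibitory receptor that pDCs share with activated T cells, stood at 191 and 204 CPM against 0.276 and 0.839.

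Of the pDC transcription factors, 6 of 15 were higher than in B cells: Tcf4, Runx2, Irf8, Zeb2, Irf7 and Zfp521. Ikzf3 (Aiolos), a factor of mature lymphocytes, was lower, at 20.7 and 16.8 CPM against 121 and 126. Bcl11a and Spib, which B cells also use, were near the B cell level (269 and 282 CPM for Bcl11a, 126 and 155 CPM for Spib). In the secretory list 32 of 36 genes lay above 1 in both libraries, and Xbp1 (39.5 and 38.9 CPM in B cells), Hsp90b1 (180 and 160) and Ern1 (1.10 and 1.33, against 21.4 and 22.2 in pDCs), the sensor that splices Xbp1 mRNA, passed 4-fold. Of 19 cytokine receptors, 7 were higher than in B cells, among them Il7r (176 and 172 CPM against 0.604 and 9.44) and Csf2rb2 (137 and 134 against 0.500 and 0.995). The receptor and adaptor list had 9 of 15 higher, with Fcer1g at 918 and 867 CPM against 15.4 and 21.4.

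Genes shared with the B lineage did not behave alike. Of 23 compared, 11 were lower than in B cells. The B lineage factors Ebf1 (56.9 and 108 CPM against 1546 and 1547) and Pax5 (12.6 and 22.6 against 256 and 280) were lower, as were Bank1, Fcmr and Cr2 with Gm31243, BE692007, Dtx1, Pxdc1, Scd1, S1pr1 and 2010309G21Rik among the 12 furthest below. Dntt stood at 150 and 159 CPM in pDCs, in 53 and 81 members. It is not compared with conventional dendritic cells, whose rule allowed at most 1 UMI of the precursor set that holds it. Iglc3, a light chain constant region, stood at 845 and 665 CPM in pDCs against 75.1 and 109 in conventional dendritic cells and 1059 and 1112 in B cells.

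Ighm transcripts were found in nearly all pDCs. After thinning, 90.5% and 88.1% of pDCs had an Ighm UMI, against 23.9% and 40.4% of conventional dendritic cells and 53.3% and 51.3% of T cells, which do not express it. The summed Ighm level of 714 CPM in Early and 3509 CPM in Advanced members cannot be read as a rise, since 78.3% of the Advanced UMIs came from 1 cell, and the ratio of 4.92 became 1.05 among members with at least 2 Siglech UMIs.

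Between the stages, of 43 pDC surface and marker genes 1, Ly6a, was called, and the list's median log2 ratio was -0.01. Ly6a was lower and Id3 higher in Advanced arthritis, each seen in 21 or more members of both libraries, and 2 of 21 interferon response genes were called lower, in few cells. Genes at 10 CPM or more in either library were compared, and those whose Advanced over Early interval lay wholly beyond 2-fold were called apart. Of 7977 genes compared in pDCs, 27 were higher (0.338%) and 42 lower (0.527%) in Advanced arthritis, and among members with at least 2 Siglech UMIs 28 were higher and 16 lower (0.358% and 0.204%), sharing 18 and 11 with the former. The same rule called 33 higher and 84 lower in conventional dendritic cells (0.409% and 1.04%), and 19 higher (0.274%) and 0 lower in B cells. Antibody genes were kept out of the naming: Igkv8-30, Ighg2c, Ighg2b, Ighm, Ighv14-1 and Igll1, a gene of the precursor set, were higher, and Igkv12-46, Igha and Ighv10-3 lower, as was Xcr1, a gene of the conventional dendritic cell rule.

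Bst2 (ratio 0.981), Tlr7 (1.00), Irf7 (1.01), Irf8 (0.972), Tcf4 (1.13) and Runx2 (1.11) differed little between the libraries. None of the 15 pDC transcription factors, 18 genes of the Toll-like receptor list, 15 class II genes, 19 cytokine receptors or 21 TNF and NF-kB response genes was called. Of the surface list, 1 of 43 was. The ratio moved more for Klk1 (0.531, 0.472 to 0.597), P2ry14, a nucleotide sugar receptor (0.646), Cd4 (155 and 103 CPM, 0.662), Ly6d (0.754) and Cd209d (429 and 761 CPM, 1.77), none of them beyond the 2-fold rule.

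Ly6a (Sca-1), a surface protein of stem cells and lymphocytes that interferon induces, was the surface gene that passed. It lies at chr15:74994877-74998031 (minus strand, GRCm38), on the same chromosome as Ly6c2 (chr15:75108158-75111970) and Ly6d (chr15:74762056-74763620). Its 836 UMIs in 62 of 75 Early members and 636 UMIs in 79 of 118 Advanced members gave 618 and 261 CPM, a ratio of 0.423 (0.381 to 0.469), and 0.378 with at least 2 Siglech UMIs. The median member held 5.50 Ly6a UMIs per 10000 in the Early library (quartiles 0.681 and 11.7) and 0.790 in the Advanced library (0 and 3.97), so the ranges overlapped while the middle of the distribution moved. After thinning, 56.8% and 38.1% of pDCs had a Ly6a UMI, against 39.5% and 38.2% of B cells and 21.3% and 15% of T cells. The ratio was 0.957 in B cells and 2.54 in conventional dendritic cells (31.5 and 80.1 CPM), and whether pDCs differ from them by stage was not tested.

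Interferon response genes lay lower in Advanced pDCs. Of the 21 genes of the list compared, 19 had a ratio below 1, with a median of -0.42 (log2) against 0.03 for all genes, and 21 of 22 with a median of -0.55 among members with at least 2 Siglech UMIs. The median lay between -0.88 and -0.22 across 15 settings. In conventional dendritic cells 18 of 27 lay below 1 with a median of -0.20, and in B cells 15 of 19 lay above 1 with a median of 0.13. The genes passing 2-fold were few and rested on few cells: Isg15, a ubiquitin-like antiviral protein, held 73 UMIs in 13 Early members and 27 UMIs in 13 Advanced members, 53.9 and 11.1 CPM, a ratio of 0.206 (0.127 to 0.324). Ifi44 held 30 UMIs in 14 cells and 8 UMIs in 5 cells, 22.2 and 3.29 CPM, a ratio of 0.148 (0.0587 to 0.331). After thinning, Isg15 was seen in 5.41% and 1.69% of pDCs and in 5.92% and 5.22% of T cells, so its share of cells was no higher than in T cells and is not read as a difference.

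More widely seen members of the list moved less. Ifi203, a nucleic acid sensor family gene, stood at 207 CPM in 49 Early members and 112 CPM in 87 Advanced members, a ratio of 0.540 (0.455 to 0.640). Ifi27l2a went from 485 to 364 CPM, with a ratio of 0.751 (0.678 to 0.832). Only Isg20 (1.45, 0.748 to 3.00) and Lgals3bp (1.03) lay above 1.

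Summed per cell over the list, the median pDC held 55.0 UMIs per 10000 in the Early library (quartiles 43.0 and 63.2) and 47.2 in the Advanced library (33.1 and 59.7), of which Bst2 alone gave 37.9 and 37.3. The median conventional dendritic cell held 10.6 and 10.8, and the median B cell 11.2 and 11.4. The excess over the other classes was therefore mostly Bst2: against conventional dendritic cells 10 of 23 genes of the list lay above 1 and 10 below 1 in both libraries, with medians of 0.06 and -0.21, and Bst2 alone was called. The pDCs of the 2 libraries overlapped widely.

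**Figure D4:**
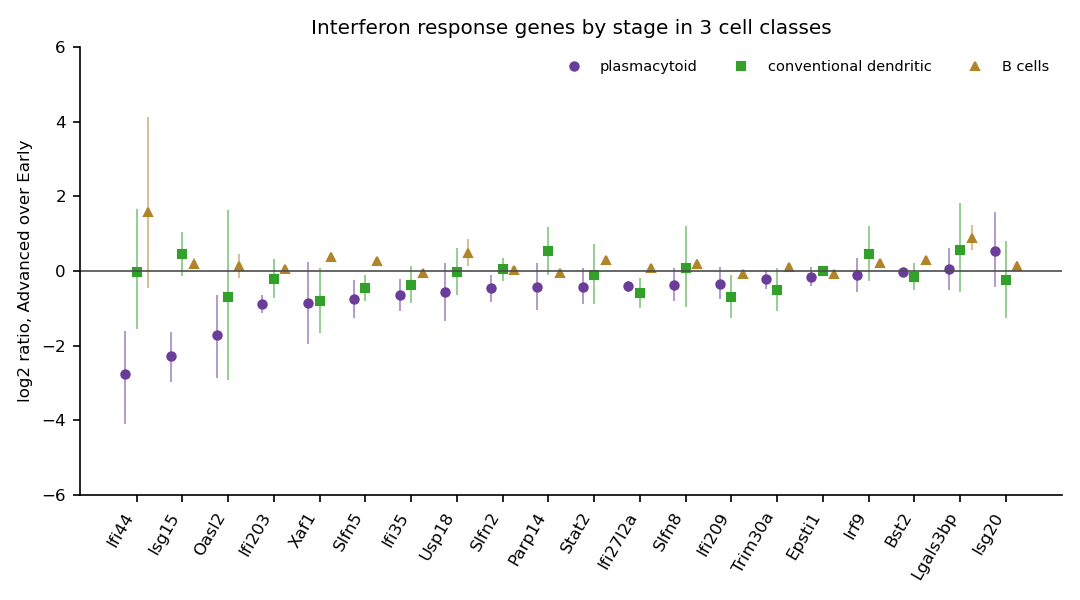
Log2 ratio of Advanced over Early CPM with its exact 95% interval for 20 of the 21 interferon response genes compared in pDCs (circles), with the same genes in conventional dendritic cells (squares) and B cells (triangles). The pDC points lie below 0 apart from those of Isg20 and Lgals3bp, while those of B cells lie mostly just above it.

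Outside the list, the genes furthest lower in Advanced pDCs included other interferon-inducible genes in few cells: Ifi205 held 57 UMIs in 4 Early members and 9 in 1 Advanced member, and Ifi211 32 UMIs in 6 and 4 in 2. Ly6k held 74 UMIs in 12 Early members and 8 in 4 Advanced members, a ratio of 0.0601. Mllt3, a transcription elongation factor, held 22 UMIs in 12 Early members and 0 UMIs in Advanced members, a ratio of at most 0.0758 by the floor of 3 counts. Gzma, Gzmb, Tcrg-C1, Trdc, Klra3, Prss2, Cxcl16 and Gm17657 completed the 12, each with 60% or more of its Early UMIs in 1 cell except Trdc with 50%.

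Higher in Advanced pDCs were genes that sat in a minority of members, apart from Id3. Id3 (chr4:136143497-136145755, plus strand), an inhibitor of E proteins such as TCF4, held 35 UMIs in 21 of 75 Early members and 247 UMIs in 59 of 118 Advanced members, 25.9 and 101 CPM, a ratio of 3.92 (2.75 to 5.76), and 4.06 with at least 2 Siglech UMIs. No cell held more than 17.1% of them. The ratio was 0.900 in conventional dendritic cells (13.1 and 11.7 CPM) and 0.999 in B cells (108 and 108 CPM). Tbc1d4, a regulator of vesicle traffic, held 43 UMIs in 9 and 525 UMIs in 28 members, a ratio of 6.79 (4.97 to 9.49), against 1480 and 1819 CPM in conventional dendritic cells. The size of its ratio depended on the cells kept and the settings, between 4.84 and 38.7. Fcer2a (CD23), a low-affinity IgE receptor of B cells, held 16 UMIs in 10 and 219 in 29 members, a ratio of 7.61.

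The neuropeptide gene Gal held 0 UMIs in Early members and 59 UMIs in 7 Advanced members, 61.0% of them in 1 cell, at least 10.9-fold higher by the floor of 3 counts. The chemokine Ccl9 held 1 UMI and 30 UMIs in 11 members, and Tpm2 1 UMI and 41 UMIs in 12. Trbc2, Clec4a2, Calm4, Prkg1, Cd209e and Cd34 completed the 12, and of these Trbc2, Clec4a2 and Cd34 had 67.8% or more of their Advanced UMIs in 1 cell.

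In the secretory list none was called between the stages, and 28 of 36 genes lay below 1, with a median of -0.09, and Xbp1 (0.756), Hsp90b1 (0.788) and Hspa5 (499 and 372 CPM, 0.747), the chaperone BiP, were among them. All 10 B cell markers lay above 1, with a median of 0.89 and Fcer2a alone called, beside the summed level of 414 and 683 CPM, and their part in the other stage results was not tested. In the cell cycle list 20 of 22 genes lay below 1, with a median of -0.95, and Ube2c, Mki67 and Birc5 were called lower, but the values rested on few cells: Mki67 held 164 UMIs in 9 Early and 111 UMIs in 9 Advanced members, with 55.5% and 47.7% in 1 cell. The list's median was -0.46 among members with at least 2 Siglech UMIs, and 0.16 without the members that held markers of another class.

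Class II genes and Ly6d were among the genes that varied between pDCs, beside antibody genes and features such as Malat1. After thinning to 3000 UMIs, the variance of each gene was divided by its mean (Fano factor, near 1 for counting noise alone) over 74 Early and 118 Advanced members, and 1728 genes had a median lower value of 1.01. The 15 genes with the largest lower value were Igkc, Gm42418, Jchain, Malat1, Hist1h2ap, AY036118, H2-Eb1, Cd74, Tmsb4x, H2-Ab1, Lyz2, Ly6d, Ifi27l2a, Ly6c2 and mt-Atp6. Jchain (125 and 44.6) and Lyz2 (6.27 and 17.5) rested on few cells, with 99.6% of Early Jchain UMIs and 45.7% of Advanced Lyz2 UMIs in 1 cell. H2-Eb1 reached 9.04 and 14.2, Cd74 8.11 and 17.4, and Ly6d 7.79 and 5.98. Among members with at least 2 Siglech UMIs, 12 of the 15 genes were the same.

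Members were also described by Cox6a2, which is a gene of the membership rule: cells at 0 entered through Siglech and Ccr9. Members with at least 2 Siglech UMIs were split into 9 Early and 15 Advanced cells with 0 Cox6a2 UMIs and 61 and 95 cells with at least 1, a split chosen after seeing the data, so all values of the split are a description. By median, cells without Cox6a2 were not shallower: they held 22059 and 21293 UMIs, against 14372 and 17191 in the cells with it. Early cells of 1605, 3308 and 5331 UMIs were among them, each with 0 Bst2 UMIs. Whether low depth gave their lack of Cox6a2 was not tested. At least 3 UMIs of markers of another class were held by 4 of 9 and 11 of 15 cells without Cox6a2, and by 6 of 61 and 23 of 95 cells with it. Of 7636 genes, 91 were higher and 79 lower in cells without Cox6a2 (1.19% and 1.03%), with intervals wholly beyond 2-fold in both libraries.

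Summed over the group, cells without Cox6a2 held less of the pDC programme. Of 43 surface genes, 23 were lower and none higher, with medians of -2.18 and -2.05 (log2) against 0.02 and -0.05 for all genes. Klk1 and Dntt held 0 UMIs in every cell without Cox6a2, against 604 and 314 CPM and 180 and 184 CPM in the others. Ly6d stood at 29.1 and 497 CPM against 3670 and 2560, Ctsl at 11.6 and 96.0 against 1374 and 1317, and Bst2 at 855 and 1285 against 3880 and 3576. Irf8 was lower, at 518 and 697 CPM against 2401 and 2362, while Tcf4 was near level, at 1559 and 1510 CPM against 1678 and 1848. The cells were not alike: Early ones of 27449 and 36476 UMIs held 0 and 30 Irf8 UMIs. An Advanced one of 42095 UMIs held 55 Irf8 and 41 Siglech UMIs. Ly6a was lower as well, at 52.4 and 73.4 CPM against 855 and 318, and within the cells with Cox6a2 its level was still lower in the Advanced library.

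Summed in the same way, the group held more of the antigen-presenting programme. Whether the lower and the higher genes lay in the same single cells was not tested. Of 14 class II genes, 7 were higher, with medians of 1.54 and 1.23: H2-Aa stood at 9379 and 7436 CPM against 3144 and 3003, and Cd74 at 18694 and 16736 against 7383 and 7653. Of 8 transcription factors of conventional dendritic cells, Zbtb46, Nr4a3, Klf4 and Irf4 were higher, Zbtb46 at 111 and 42.3 CPM against 4.16 and 4.53. Of 14 genes listed for transitional dendritic cells, which lie between plasmacytoid and conventional dendritic cells, Vim, Klf4, Tmem176a, Tmem176b, Lgals3 and the fractalkine receptor Cx3cr1 were higher and 12 lay above 1 in both libraries. Lyz2, also listed, went opposite ways in the 2 libraries, at 332 against 160 CPM in Early and 11.3 against 521 CPM in Advanced. Cx3cr1 stood at 128 and 192 CPM against 23.9 and 53.8, and was seen in 6 of 9 and 10 of 15 cells without Cox6a2.

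Some genes called between the stages stood highest in these cells. In the Advanced library Tbc1d4 stood at 971 CPM in the cells without Cox6a2 and 95.2 CPM in those with it, and Fcer2a at 469 and 27.8 CPM. The Early values were 40.7 and 4.16 CPM for Tbc1d4, seen in 3 and 4 cells, and 5.82 and 8.32 CPM for Fcer2a. Both genes were thus higher in the Advanced library in both groups of cells. Other B cell genes moved with Fcer2a in the Advanced library: Cd79a stood at 333 and 117 CPM, Ms4a1 at 133 and 45.3, Cr2 at 64.9 and 17.6 and Pax5 at 53.6 and 18.1. The median log2 ratio of the 8 B cell markers compared was 1.25 in the Advanced and -0.77 in the Early library, and their part in the Fcer2a and class II values was not tested. Id3 was the reverse, at 8.47 and 136 CPM, seen in 2 of 15 and 55 of 95 cells, and in the Early library at 5.82 and 32.2 CPM, seen in 1 of 9 and 18 of 61.

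**Figure D5:**
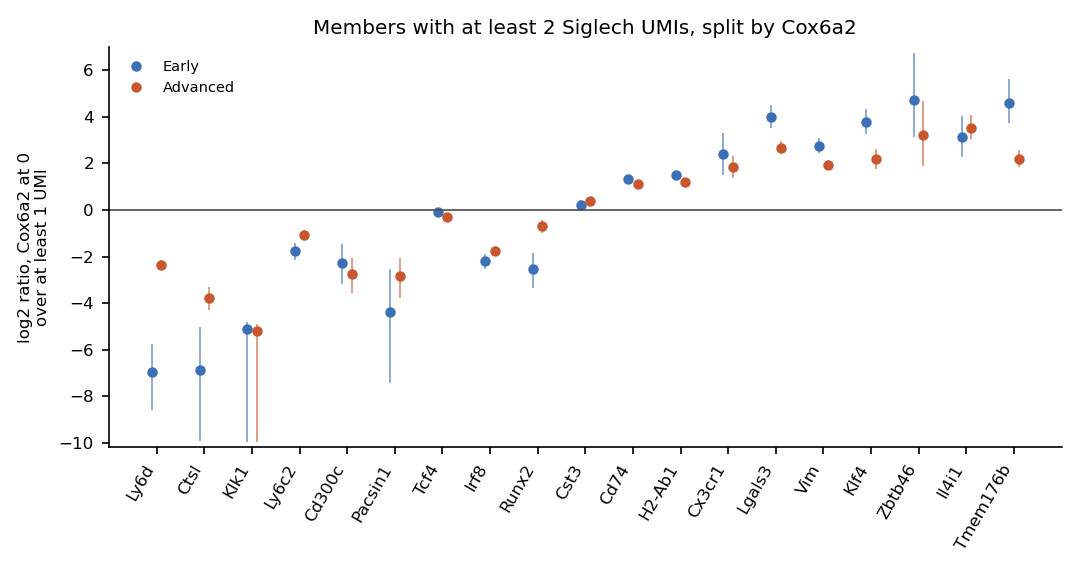
Log2 ratio of CPM with its exact 95% interval, members with 0 Cox6a2 UMIs over members with at least 1, among members with at least 2 Siglech UMIs, for 19 genes in the Early and Advanced libraries. Genes of the pDC programme such as Ly6d, Ctsl and Klk1 lie below 0, Tcf4 lies near 0, and Cd74, Lgals3, Vim, Klf4 and Zbtb46 lie above 0 in both libraries.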

How the data were processed

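Single-cell libraries of PLN cells from TNF-Tg mice at Early and Advanced arthritis were analysed, 1 library per stage. The authors deposited whole-number UMI counts per gene and barcode, made with Cell Ranger (3.1 and 3.1.0 in the submitters' processing notes, 6.0.1 in the file header) on mouse build mm10. Barcodes numbered 8242 and 8201, of which 21 and 18 had under 200 genes and were left out. Per the study's methods Seurat was used after that step (4.0.3 in the processing notes). No deposited annotation was used, so classes come from marker rules and names may differ from the study's.

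The counts were summed over the cells of a class in each library and scaled to counts per 1000000 UMIs (CPM). Shares have exact Clopper-Pearson intervals and levels exact Poisson intervals; ratios have exact conditional intervals, and a sum of 0 was set to a floor of 3 counts. An edgeR test could not be fitted with 1 library per stage, so a fixed rule of size was used in its place. Named were the 12 higher and 12 lower genes by the interval end nearest to 1, the 15 genes with the largest lower Fano factor, and members of 32 gene lists, 532 of whose 538 genes were matched. Of 32285 genes listed, 78 share a symbol with another gene ID. Members and lists were chosen with earlier results of these data known. No doublet caller was run; members holding other classes' markers and the tenth of members with most UMIs were left out in turn instead. Scripts ran in Python 3.11.15 with numpy 2.4.6, scipy 1.17.1, pandas 2.3.3 and matplotlib 3.10.9, and R 4.3.3 with edgeR 4.0.16 (TMM) and DESeq2 1.42.0 (size factors), and were tested on simulated data. Promoters are from RefSeq (GRCm38.p6) and gene positions from GENCODE. Alternatives changed the marker thresholds, the CPM minimum, the scaling, the weighting of cells and the cells kept. A few genes that the naming rule covers are not reported here, though they count in the totals of their lists.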

Additional observations from a re-analysis of the deposited data

Results flagged for a closer look

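Cells with at least 5 pDC marker UMIs lay outside the members. In the Early library 5 were set aside by the B marker share and 8 by CD3 UMIs, and in the Advanced library 44 and 59. Those set aside by the B share held Siglech at 625 and 1200 CPM beside Cd79a at 1176 and 1265 CPM, and 3 of 5 and 33 of 44 had at least 2 Siglech UMIs. Those set aside by CD3 held Trbc2 at 3632 and 1918 CPM, Dntt at 607 and 471 CPM and Ccr9 at 484 and 506 CPM, and 0 of 8 and 6 of 59 had at least 2 Siglech UMIs. No member count includes them, and whether they are doublets was not tested.

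For 4 genes the stage ratio (Advanced over Early) passed the size rule in opposite directions in pDCs and in another class, and the difference itself was not tested, since it cannot be with 1 library per stage. Cd55, a complement regulator, had a ratio of 4.53 in pDCs (7 UMIs in 4 cells and 57 in 24) and 0.287 in conventional dendritic cells. Clu, a secreted chaperone, had 9.17 in pDCs, with 90.9% of its 33 Advanced UMIs in 1 cell, and 0.295 in conventional dendritic cells. Igha had 0.000179 in pDCs and 25 in conventional dendritic cells, and Jchain 0.315 in pDCs and 3.23 in B cells. For Igha and Jchain 99.9% and 99.6% of the Early pDC UMIs were in 1 cell. Among members with at least 2 Siglech UMIs the ratio of Jchain was 9.63, which also rested on few cells, with 72 Advanced UMIs in 1 cell.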

How the results depend on the processing

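No paired analysis was possible because each stage has 1 library. The share ratio lay between 0.877 and 1.89 and stayed above 1 except over cells neither B nor T (0.877). Genes lower in Advanced pDCs numbered 26 with a marker sum of at least 3, 78 with a B marker share under 0.003, 15 without the tenth of members with most UMIs, 16 with at least 2 Siglech UMIs, 14 at a minimum of 50 CPM and 22 without the cell with most UMIs of each gene, and genes higher numbered 6 at 50 CPM. Against conventional dendritic cells 167 were higher and 223 lower with each cell weighted equally, and 80 lower at 50 CPM. Against B cells 196 were higher at 50 CPM and 719 with no minimum, and 50 were lower with a B share under 0.003 and 138 with TMM factors. The interferon transcript count was 0 without members holding other classes' markers. The cause was not tested.

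Of the genes named between stages, 254 values kept their call, 62 lost it and 7 reversed: Prss2 to 1.27 and Klra3 to 1.54 with a marker sum of at least 3, Clec4a2 to 0.363 and Cxcl16 to 4.36 without the tenth with most UMIs, and Cd34 to 0.535, Cxcl16 to 3.74 and Klra3 to 1.07 with at least 2 Siglech UMIs. Against conventional dendritic cells 359 kept and 1 lost it, and against B cells 333 kept and 3 lost it. Small classes limit what can be seen: genes under about 10 CPM rest on few UMIs in 75 and 118 cells.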

Other observations

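Further groups of genes gave these values. Of 12 cell survival genes, 10 could be compared with conventional dendritic cells, where Bcl2a1a and Bcl2a1d were lower, with medians of -0.64 and -0.60 (log2), and none was called between stages. Of 20 immediate early and dissociation genes, 15 were compared between stages in pDCs, with none called and a median of -0.12, and Atf3 was lower than in conventional dendritic cells. Of the 7 surface Toll-like receptors, 2 reached 10 CPM in pDCs of a library. TNF itself, as the mouse gene Tnf, held 3 UMIs in Early and 18 UMIs in Advanced pDCs, 2.22 and 7.39 CPM. Of the 18 Advanced UMIs, 11 were in 1 cell, so the values are not read as a rise. Of the TNF receptors, Tnfrsf1a stood at 18.5 and 21.8 CPM and Tnfrsf1b at 16.3 and 20.9 CPM, the latter against 63.1 and 66.2 CPM in conventional dendritic cells.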
